A study of Mus musculus with 7 samples.

Results

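The genes described here are 37 genes of mitosis and cytokinesis, out of 23284 genes with a row in the count tables. They were chosen by symbol for their textbook roles, with earlier results of these data known. All 37 had a row and all 37 passed the filter on low counts. They were followed in atrioventricular canals, the narrow stretch of the heart tube that joins atrium to ventricle and forms the valve cushions. The mutant group was Hand2 d/d on an outbred NMRI background, homozygous for an allele from which germline Cre recombination had removed all of the Hand2 coding sequence, and the other group was wild type on the same background. Both groups were collected early on embryonic day 9, with 18 to 23 somites (the sample titles name a slightly later time). Each library was made from 4 pooled canals, so a replicate is a pool and not an embryo, and the loss of Hand2 affected the whole embryo and every cell type in the dissected piece. There were 4 null libraries, numbered 1 to 4, and 3 wild-type libraries, numbered 2 to 4. HAND2 is a transcription factor of the basic helix-loop-helix family that heart development requires.

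Mitosis is driven by cyclin-dependent kinase 1 bound to A- and B-type cyclins, and is helped by the Aurora and Polo kinases. The chromosomes attach to spindle microtubules through the kinetochore, and the spindle checkpoint holds the anaphase-promoting complex inactive until every chromosome is attached. The complex then marks cyclin B and securin for destruction, separase cuts cohesin, and the central spindle directs the cleavage of the cell. Most of these transcripts are made only in late S, G2 and M phase, so in a mixed tissue their level depends on how many cells are cycling. In the embryonic heart tube, proliferation differs between regions and is known to be slow in canal myocardium.

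The promoters of these genes are shown because letters known from late cell cycle promoters recur in them. Late cell cycle genes are known for the cell cycle genes homology region (CHR, TTTGAA or the variant TTTAAA), bound by the MuvB complexes, and for the box CCAAT, bound by NF-Y. RefSeq promoter windows of build GRCm38.p6, from 250 bases before to 50 bases after an annotated start site, were found for 32 of the 37 members, with 35 windows in all. Ccna2, Aurkb, Incenp, Tpx2 and Kif20a had no entry. The 100 bases before the start site are printed for 8 members that represent the kinases, cyclin, kinetochore, anaphase, chromosome and motor roles. Capitals mark CHR letters and the CCAAT box on either strand. On the opposite strand TTTGAA reads as TTCAAA, and the box reads as ATTGG.
Cdc20: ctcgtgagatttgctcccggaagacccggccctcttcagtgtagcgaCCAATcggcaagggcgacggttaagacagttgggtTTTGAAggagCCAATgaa
Ube2c: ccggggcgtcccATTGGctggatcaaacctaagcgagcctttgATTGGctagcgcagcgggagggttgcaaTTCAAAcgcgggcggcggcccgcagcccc
Cenpa: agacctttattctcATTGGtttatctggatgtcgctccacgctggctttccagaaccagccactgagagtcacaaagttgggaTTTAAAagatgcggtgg
Cdk1: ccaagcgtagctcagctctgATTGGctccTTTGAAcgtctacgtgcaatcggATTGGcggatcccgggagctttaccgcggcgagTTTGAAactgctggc
Ccnb1: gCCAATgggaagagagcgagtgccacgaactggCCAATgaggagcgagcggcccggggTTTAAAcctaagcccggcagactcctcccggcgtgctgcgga
Plk1: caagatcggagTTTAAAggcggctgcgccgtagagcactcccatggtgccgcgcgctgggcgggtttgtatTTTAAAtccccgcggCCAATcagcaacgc
Top2a: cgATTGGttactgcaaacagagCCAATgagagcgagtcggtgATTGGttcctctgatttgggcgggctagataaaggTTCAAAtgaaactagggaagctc
Kif11: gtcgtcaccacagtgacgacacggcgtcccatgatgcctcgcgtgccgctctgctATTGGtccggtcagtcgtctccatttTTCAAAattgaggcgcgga

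On GRCm38.p6 these stretches are chr4:118437344-118437443 on the minus strand for Cdc20, chr2:164769829-164769928 on the plus strand for Ube2c and chr5:30666786-30666885 on the plus strand for Cenpa. Those of the kinases and the cyclin are chr10:69352913-69353012 on the minus strand for Cdk1, chr13:100786487-100786586 on the minus strand for Ccnb1 and chr7:122159335-122159434 on the plus strand for Plk1. The last are chr11:99024190-99024289 on the minus strand for Top2a and chr19:37376282-37376381 on the plus strand for Kif11. The letters TTTGAA, read on both strands, occurred in 28 of the 35 member windows (80.0%), against 17.9% of all 32851 windows of the same length. With TTTAAA counted as well, 31 member windows (88.6%) held a CHR match, against 27.6% of all windows, and in 27 of them it began within 50 bases of the start site (77.1%, against 8.28% of all windows). CCAAT was found in 28 member windows (80.0%, against 37.4% of all windows), and 27 member windows held both elements (77.1%, against 10.7%). A CHR match and a CCAAT match shared a base in 1 member window. Of the 32 members with a window, Bub1, Mad2l1, Nuf2 and Nusap1 held no CHR match in it, and Mad2l1, Nuf2 and Nusap1 held neither element. These are matches of letters and not measured binding.

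**Figure D1:**
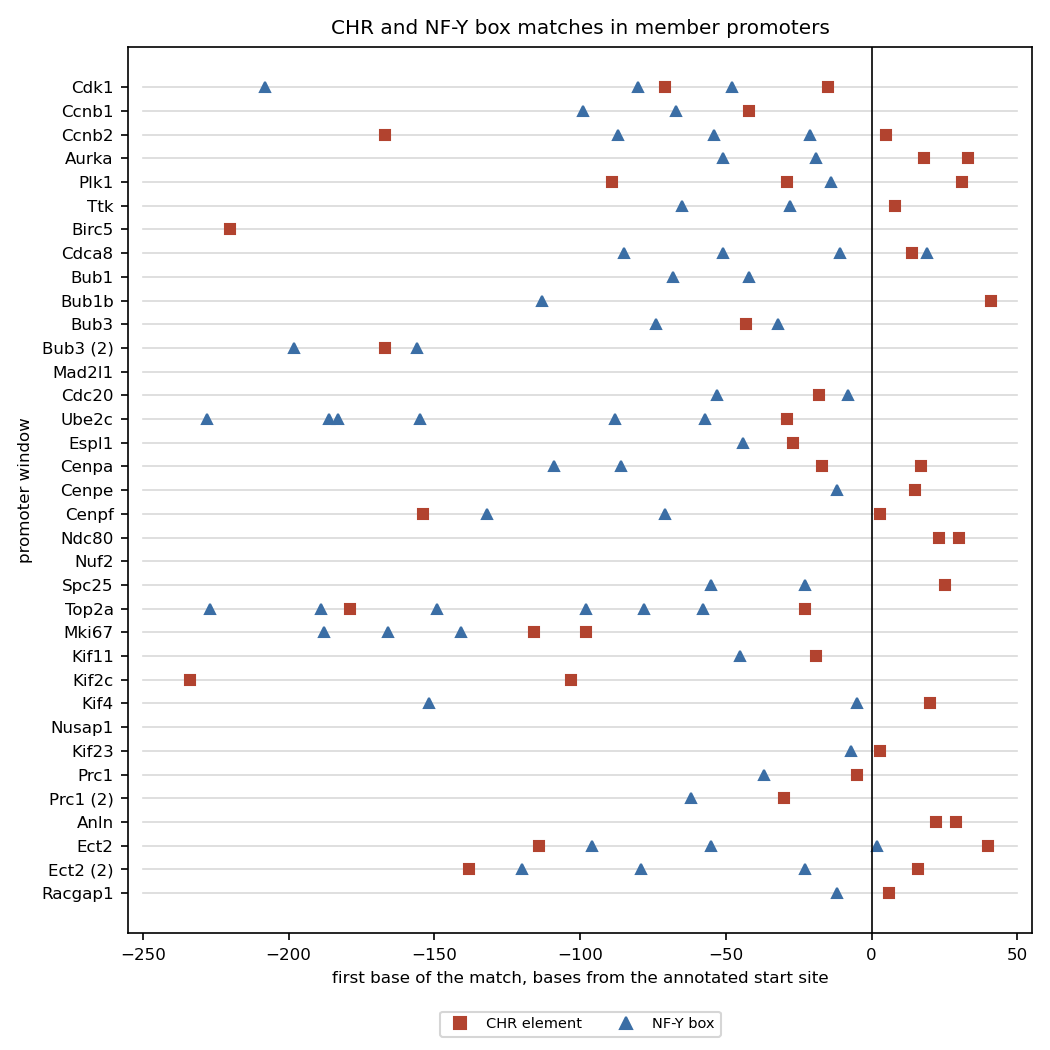
Positions of CHR matches (red squares) and NF-Y boxes (blue triangles) in the 35 promoter windows of 32 members, 1 row per window, with the distance of the first base of the match from the annotated start site in bases on the x axis. A CHR match began within 50 bases of the start site in 27 windows, while the NF-Y boxes lay mostly before it, with a box wholly inside the 100 bases before the start site in 25 windows.

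The libraries matched their genotype labels, since Hand2 was read 7 to 26 times in null and 1194 to 2123 times in wild-type libraries. Reads in genes numbered 27905601 to 44860753 per library, and the members were read 480 to 23271 times each per library, so counting error was small for all of them. Levels are given as CPM, the reads of a gene scaled by its library's total of reads in genes, and log2 fold changes are null over wild type from the quasi-likelihood test of edgeR, with standard error (SE). A call meant an adjusted p under 0.05, by the Benjamini-Hochberg method over all 14290 genes tested. The labels call the pools separate replicates and do not say which litters they came from. In whole tissue, fewer cells of a type and less RNA per cell cannot be told apart.

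None of the 37 members was called in Hand2 null canals, in either direction, while 6.24% of all genes tested were called (4.11% higher and 2.13% lower). At an unadjusted p under 0.05, 7 members (18.9%) were lower and 0 were higher, against 24.4% of all genes in either direction and 10.9% of all genes lower. DESeq2 called 3 members (8.11%) lower, namely Incenp, Birc5 and Cdc20, and 0 higher, where it called 5.57% of all genes lower and 7.02% higher. An edgeR fit with a replicate block, a term for the library number, called 2 members (5.41%) lower, Ccna2 and Ube2c, and 0 higher. It called 3.95% of all genes lower and 5.70% higher. The fitted values were small, from a fold of 0.676 for Ccna2 to 1.44 for Kif20a, with a median log2 fold change of -0.07, against 0.02 for all genes. The fitted value was above 0 in 15 of 37 members, against 52.3% of all genes. The median size of the log2 fold change, whatever its sign, was 0.158 for members and 0.277 for all genes. The median level was 105 CPM for members and 16.0 CPM for all genes, so these sizes were not compared at like levels. The 95% interval lay inside a 2-fold change in either direction for 35 members, and inside a 1.5-fold change for 23. The 2 members whose interval reached past 2-fold were Ccna2 (-1.02 to -0.11 on the log2 scale) and Kif20a (-0.10 to 1.14).

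**Figure D2:**
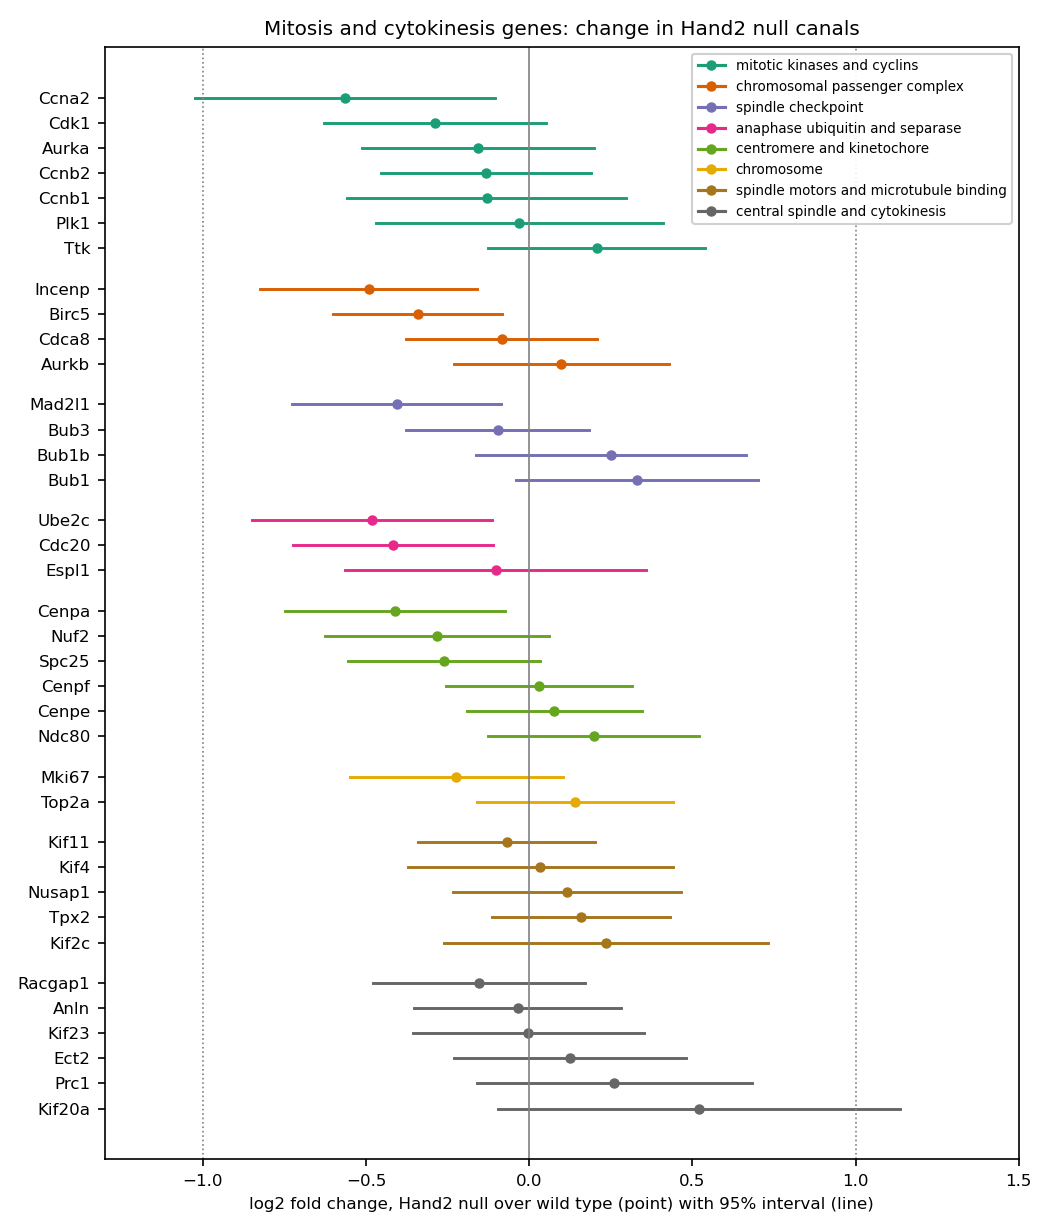
Log2 fold change of each of the 37 members, Hand2 null over wild type (points), with its 95% interval from the edgeR fit (lines), grouped by role and coloured by role. Dotted lines mark a 2-fold change, and the intervals of 35 members stay between them.

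In 8 members every null library was below every wild-type library (21.6% of members, against 10.3% of all genes), and in 0 members was every null library above (against 11.6%). The 8 were Ccna2, Incenp, Birc5, Mad2l1, Cdc20, Ube2c, Cenpa and Spc25. Their fitted folds were modest, and none was called, so the values that follow are given as measured and not as changes. Ccna2, Cdc20 and Ube2c of these 8 overlap the spans of Exosc9, Elovl1 and Tnnc2 on the other strand, as Kif20a overlaps that of Cdc23. Unstranded reads cannot be told apart where such pairs share bases, and the shared length was not measured.

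Among the kinases and cyclins that start mitosis, the null values of 6 of 7 genes were fitted below wild type, with a median log2 fold change of -0.13. Ccna2 encodes cyclin A2, which acts in S phase and at mitotic entry. It measured 84.1, 47.9, 89.6 and 72.6 CPM in null libraries 1 to 4, against 108, 119 and 97.2 CPM in wild-type libraries 2 to 4. The groups did not overlap, and null library 2 was the lowest (log2 fold change -0.56, SE 0.211, edgeR adjusted p = 0.126). Cdk1, the kinase that drives cells into mitosis, measured 240.2, 201, 188 and 273 CPM in null, against 309, 251 and 258 CPM in wild-type libraries. Null library 4 overlapped the wild-type range and the other null libraries were below it (-0.29, SE 0.156, adjusted p = 0.278). Its cyclin partners averaged 403 ± 102 CPM in null and 435 ± 68.0 CPM in wild type for Ccnb1 and 104 ± 13.6 CPM in null and 113 ± 15.9 CPM in wild type for Ccnb2 (SD, n = 4 and 3). Aurka, which matures the centrosomes, averaged 94.9 ± 19.0 CPM in null and 104 ± 7.55 CPM in wild type, and Plk1, the Polo kinase of spindle assembly and mitotic exit, 111 ± 32.4 CPM in null and 112 ± 14.2 CPM in wild type. In the last 4 genes the range over null libraries held that of the wild-type libraries or overlapped it. The checkpoint kinase Ttk was the 1 gene fitted above 0, at 40.3 ± 5.40 CPM in null and 34.4 ± 3.61 CPM in wild type, a log2 fold change of 0.21 (SE 0.153).

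The chromosomal passenger complex consists of the kinase Aurora B, the scaffold INCENP, survivin and borealin, and corrects faulty attachments before moving to the central spindle. Incenp had the smallest p of all members. It measured 18.8, 25.1, 24.3 and 23.8 CPM in null libraries, against 30.4, 35.7 and 29.3 CPM in wild-type libraries, without overlap (log2 fold change -0.49, SE 0.153, edgeR adjusted p = 0.0763). Without null library 3 Incenp passed the threshold (-0.54, adjusted p = 0.0484), and with each library left out in turn its adjusted p ranged from 0.0484 to 0.318. The fit without null library 3 called 4.58% of all genes lower, against 2.13% with all libraries. Birc5, which encodes survivin, was the most even member without overlap, at 148, 143, 139 and 138 CPM in null libraries, against 185, 174 and 174 CPM in wild-type libraries. Its spread within each group was small beside the gap between the groups (-0.34, SE 0.119, adjusted p = 0.106). The other subunits overlapped, with Aurkb at 63.4 ± 7.35 CPM in null and 58.5 ± 10.2 CPM in wild type, and Cdca8, which encodes borealin, at 203 ± 21.2 CPM in null and 213 ± 20.8 CPM in wild type. The 4 subunits thus had fitted log2 fold changes of both signs, from -0.49 to 0.10.

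In the spindle checkpoint, fitted values went both ways. Mad2l1, whose product binds and blocks CDC20, measured 86.4, 73.2, 67.2 and 94.5 CPM in null libraries, against 112, 103 and 101 CPM in wild-type libraries. The groups did not overlap, although null library 4 came close to the wild-type range (log2 fold change -0.41, SE 0.147, edgeR adjusted p = 0.117). The checkpoint kinase Bub1 measured 106, 113, 81.7 and 138 CPM in null, against 91.7, 71.7 and 94.2 CPM in wild-type libraries, and the groups overlapped through null library 3 (0.33, SE 0.17, adjusted p = 0.257). Bub1b, which encodes the BUBR1 protein of the checkpoint complex, averaged 94.5 ± 26.1 CPM in null and 78.2 ± 5.40 CPM in wild type, and Bub3, their binding partner, averaged 202 ± 21.6 CPM in null and 213 ± 10.2 CPM in wild type.

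Of the 3 genes that carry cells through anaphase, all were fitted below 0. Cdc20, the activator of the anaphase-promoting complex, measured 51.7, 45.6, 50.9 and 53.8 CPM in null libraries, against 74.2, 67.0 and 58.8 CPM in wild-type libraries (log2 fold change -0.42, SE 0.141, edgeR adjusted p = 0.0985). Ube2c, the ubiquitin-conjugating enzyme of that complex, measured 333, 236, 340.5 and 298 CPM in null libraries, against 425, 458 and 370.2 CPM in wild-type libraries (-0.48, SE 0.168, adjusted p = 0.108). In neither gene did the groups overlap, and null library 2 was the lowest library for both. Espl1, which encodes separase, averaged 21.4 ± 6.60 CPM in null and 22.6 ± 3.24 CPM in wild type, with overlap.

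Of the 6 centromere and kinetochore genes, 3 were fitted below and 3 above 0. Cenpa encodes the histone H3 variant that marks the centromere. It measured 138, 104, 139 and 126 CPM in null libraries, against 173, 177 and 151 CPM in wild-type libraries, without overlap (log2 fold change -0.41, SE 0.155, edgeR adjusted p = 0.127). Spc25 and Nuf2 encode subunits of the NDC80 complex, which grips microtubules. Spc25 measured 109, 93.3, 92.0 and 115 CPM in null libraries, against 124, 123 and 117 CPM in wild-type libraries, where the highest null value lay just under the lowest wild-type value (-0.26, SE 0.135, adjusted p = 0.257). Nuf2 measured 37.9, 41.9, 29.1 and 46.4 CPM in null libraries, against 48.7, 42.7 and 48.0 CPM in wild-type libraries, with overlap through null library 4 (-0.28, SE 0.158, adjusted p = 0.296). Ndc80 itself, of the same complex, had the opposite sign, at 60.9 ± 6.55 CPM in null and 52.5 ± 7.11 CPM in wild type (0.20, SE 0.149). The motor gene Cenpe averaged 122 ± 7.05 CPM in null and 114 ± 1.82 CPM in wild type, and the large kinetochore protein gene Cenpf averaged 174 ± 9.47 CPM in null and 169 ± 16.4 CPM in wild type.

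Mki67 and Top2a, both common markers of cycling cells, overlapped between genotypes. Among other genes tied to cycling, Ccna2, Birc5, Ube2c and Cdc20 did not overlap, and the replication gene Pcna was called lower. Mki67, which encodes the Ki-67 coat of mitotic chromosomes, averaged 108 ± 18.2 CPM in null and 124 ± 9.05 CPM in wild type, with a fitted log2 value of -0.22 (SE 0.15, edgeR adjusted p = 0.388). Top2a, which encodes the topoisomerase that untangles sister chromatids, had the opposite sign, at 502 ± 66.8 CPM in null and 449.8 ± 21.1 CPM in wild type (0.14, SE 0.138, adjusted p = 0.578).

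Of the 5 spindle genes, 4 were fitted above and 1 below 0. Kif11, the motor that pushes the spindle poles apart, averaged 67.4 ± 2.44 CPM in null and 69.8 ± 4.63 CPM in wild type, with a log2 fold change of -0.07 (95% interval -0.34 to 0.20). Tpx2, the activator of Aurora A, ranged from 124 to 152 CPM in null and from 114 to 129 CPM in wild type. Nusap1, a microtubule-bundling protein gene, averaged 159 ± 29.3 CPM in null and 145 ± 17.6 CPM in wild type. Values for the chromosome-bound motor gene Kif4 were 42.9 ± 11.5 CPM in null and 41.3 ± 2.85 CPM in wild type, and those for the microtubule depolymerase gene Kif2c were 60.2 ± 19.3 CPM in null and 50.5 ± 10.1 CPM in wild type. All 5 overlapped between the groups.

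In the central spindle and cytokinesis genes, Kif20a had the largest fitted value above 0. It encodes the motor that carries the passenger complex to the midzone. Kif20a measured 151, 162, 72.5 and 212 CPM in null libraries, against 106, 75.2 and 127 CPM in wild-type libraries. Of the null libraries, 3 were above all wild-type libraries and null library 3 was below all of them (log2 fold change 0.52, SE 0.283, edgeR adjusted p = 0.281). Without null library 3 its value was 0.74 with an adjusted p of 0.0307, and with other single libraries left out the adjusted p reached 0.640. The fit without null library 3 called 6.65% of all genes higher, against 4.11% with all libraries. Prc1, the bundler of midzone microtubules, averaged 188 ± 49.9 CPM in null and 155 ± 21.8 CPM in wild type. The centralspindlin subunits Kif23 and Racgap1 averaged 106 ± 20.1 and 89.6 ± 13.5 CPM in null, against 105 ± 11.3 and 98.6 ± 10.8 CPM in wild type. The contractile ring scaffold gene Anln averaged 84.5 ± 10.7 CPM in null and 85.3 ± 10.7 CPM in wild type, and the RhoA activator gene Ect2 averaged 95.6 ± 20.1 CPM in null and 86.1 ± 7.24 CPM in wild type.

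**Figure D3:**
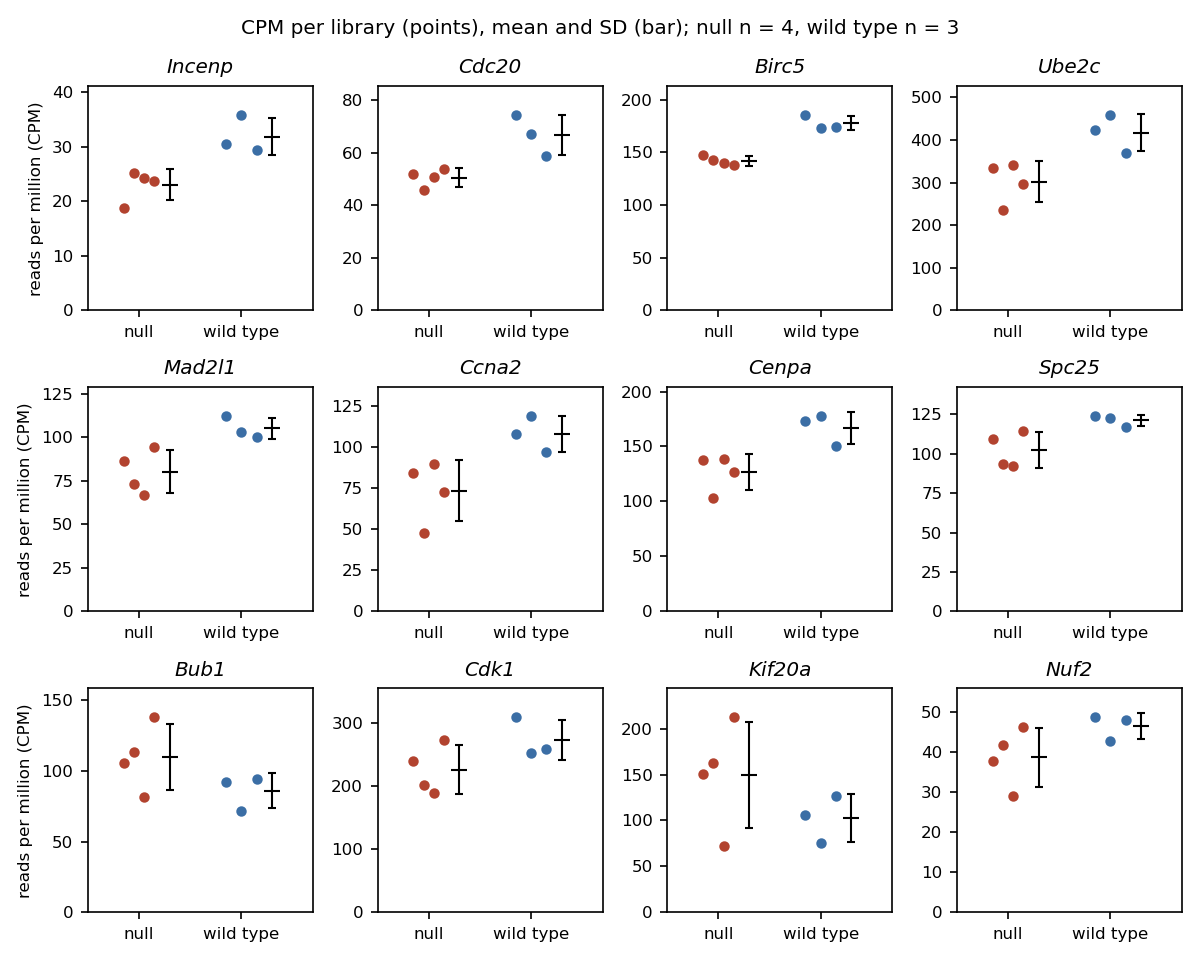
CPM of the 8 members without overlap and of the 4 others with the smallest p, 1 point per library, null left (n = 4) and wild type right (n = 3), with mean and SD beside the points. In Incenp, Cdc20, Birc5, Ube2c, Mad2l1, Ccna2, Cenpa and Spc25 all null points lie below the wild-type points, and in Bub1, Cdk1, Kif20a and Nuf2 the groups overlap.

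The summed level of the members spread more widely over the null pools than over the wild-type pools. Summed over the 37 genes, null libraries 1 to 4 held 4887, 4566, 4070.4 and 5513 CPM, and wild-type libraries 2 to 4 held 5060.0, 4766 and 5038 CPM. The means were 4759 ± 604 CPM in null and 4955 ± 164 CPM in wild type (SD, n = 4 and 3), and both the lowest and the highest sum belonged to null libraries. Null library 4 was the highest of the null libraries in 28 of the 37 members (against 29.1% of all genes tested), and null library 3 the lowest in 27 (against 35.4% of all genes). The median range of a member over the null libraries was 0.486 on the log2 scale, against 0.661 for all genes tested, and over the wild-type libraries, of which there were fewer, it was 0.286, against 0.405 for all genes. These ranges were not matched for level either, with a median of 105 CPM for members and 16.0 CPM for all genes. The widest null range was that of Kif20a, 1.55 on the log2 scale, and Kif2c, Plk1 and Bub1b followed at 1.08, 1.04 and 1.01.

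The pattern was not shared by every member. Ccna2, Ube2c, Cenpa and Cdc20 were lowest in null library 2 and not in null library 3. Null library 2 had the largest share of reads outside genes, 14.2%, against 7.31% to 9.51% in the other null libraries and 8.79% to 9.998% in wild-type libraries, and the part of this in their values was not tested. Mki67 and Birc5 had their lowest null value in null library 4, at 90.0 and 138 CPM.

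**Figure D4:**
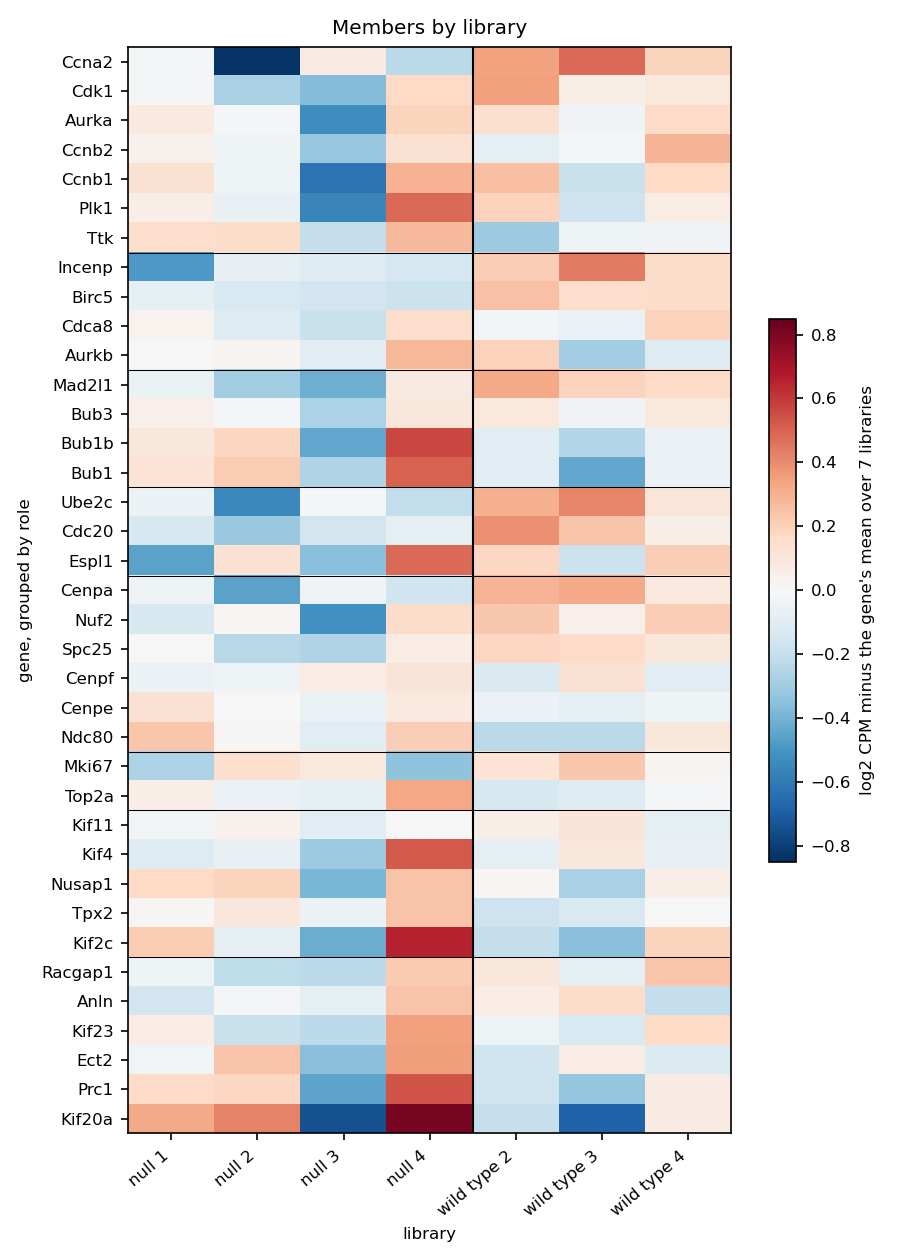
Log2 CPM of each member minus its own mean over the 7 libraries (colour; red above, blue below), genes grouped by role in rows, null libraries left of the line and wild-type libraries right of it. Null library 3 is blue and null library 4 red for most members, and Ccna2, Ube2c and Cenpa are darkest blue in null library 2.

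Null libraries 3 and 4 also stood at opposite ends in some other lists, though not in all. The sums of the wider mitosis list and of the DNA replication list were lowest in null library 3 (6699 and 3052 CPM) and, among null libraries, highest in null library 4 (7666 and 4439 CPM). The sum of the G1 list was lowest in null library 1 (2123 CPM) and, among null libraries, highest in null library 2 (2316 CPM). The summed cardiomyocyte markers (9 of 9 detected) were highest of all libraries in null library 3, at 38406 CPM, and lowest among null libraries in null library 4, at 32466 CPM. Cdkn1a, the inhibitor of cyclin-dependent kinases induced by p53, was named here after its values were seen. It measured 26.5, 35.8, 43.9 and 17.3 CPM in null, against 20.1, 12.2 and 19.7 CPM in wild-type libraries, with its highest null value in library 3 and its lowest in library 4 (log2 fold change 0.82, SE 0.287, edgeR adjusted p = 0.109). The part of any of these in the members' values was not tested.

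The summed markers of 5 other cell types did not overlap between the groups. Summed markers of endothelium (10 genes) ranged from 476.5 to 537.8 CPM in null and from 317.4 to 365.8 CPM in wild type, and those of simple epithelium (6 genes) from 283.7 to 360.4 CPM in null and from 162.8 to 187.6 CPM in wild type. Cushion mesenchyme markers (8 genes) ranged from 108.6 to 156.5 CPM in null and from 175.2 to 405.4 CPM in wild type, and epicardial markers (5 genes) from 49.0 to 74.3 CPM in null and from 37.2 to 47.7 CPM in wild type. Erythroid markers, which include dividing primitive blood cells, overlapped at 5644 to 14598 CPM in null and 9385 to 22163 CPM in wild type. The globin genes Hba-a1, Hba-a2, Hbb-b1 and Hbb-b2 of that list were at 0 in every library. Reads aligned to several places are not in the counts, so whether these genes were silent was not tested. The 4 leukocyte markers summed to 6.52 to 10.02 CPM in null and 11.8 to 12.3 CPM in wild type. Single genes called were 5 of 10 higher for endothelium, 2 of 6 higher for simple epithelium and 5 of 8 lower for cushion mesenchyme. Of the leukocyte markers 1 of 4 was called lower, and of the epicardial markers 0 of 5 were called. Of all genes 4.11% were called higher and 2.13% lower. How far any of these differences bore on the mitotic transcripts was not tested.

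Per kilobase of annotated exon, the members with the highest levels in both genotypes were Ube2c (116 CPM per kilobase in null, 161 in wild type), Ccnb1 (95.6 in null, 103 in wild type) and Ccnb2 (68.2 in null, 73.9 in wild type), and the lowest was Espl1 (2.45 in null, 2.58 in wild type). Exon lengths were unions over all GENCODE transcripts and overstate the length of genes with long alternative ends, so the order of close neighbours is not resolved.

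Of 114 further mitosis genes, 112 had a row and were tested. In edgeR 1 was called higher (0.893%, against 4.11% of all genes) and 2 were called lower (1.79%, against 2.13%). Their median log2 fold change was -0.04. Every null library was below every wild-type library in 18 of them (16.1%, against 10.3%) and above in 3 (2.68%, against 11.6%). At an edgeR unadjusted p under 0.05, 19 were lower (17.0%, against 10.9%) and 5 higher. DESeq2 called 8 lower (7.14%, against 5.57%) and 2 higher (1.79%, against 7.02%). Cenpm, a subunit of the centromere-bound complex, averaged 17.8 ± 2.01 CPM in null and 29.2 ± 3.01 CPM in wild type, with a fitted log2 value of -0.73 (SE 0.159, edgeR adjusted p = 0.0203). Cdc25a, the phosphatase that activates cyclin-dependent kinases, averaged 21.0 ± 1.80 CPM in null and 30.0 ± 2.06 CPM in wild type (-0.53, SE 0.139, adjusted p = 0.0441). Stag2, a cohesin subunit, was higher, at 114 ± 2.06 CPM in null and 79.7 ± 3.10 CPM in wild type (0.49, SE 0.121, adjusted p = 0.0342). By role, 1 of 19 entry and transcription genes, 1 of 32 kinetochore and checkpoint genes, 1 of 19 condensin and cohesin genes, 0 of 16 genes of the anaphase-promoting complex and its partners and 0 of 26 spindle and cytokinesis genes were called. Without null library 1, null library 2 or any 1 wild-type library no further mitosis gene was called higher, and without null library 2, wild-type library 2 or wild-type library 3 none was called lower. Without null library 3 the counts were 2 higher and 4 lower of these genes, in a fit that called 6.65% of all genes higher and 4.58% lower.

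In the DNA replication list, 5 of 45 genes were lower (11.1%, against 2.13% of all genes) and 0 higher, with a median log2 fold change of -0.23. They were the thymidine kinase gene Tk1 (-0.97), the sliding clamp gene Pcna (-0.67), the thymidylate synthase gene Tyms (-0.74), the clamp loader subunit gene Rfc3 (-0.57) and the helicase component gene Gins1 (-0.58), with edgeR adjusted p from 0.00299 to 0.0412. Of 25 tested genes of G1 cyclins, kinases, inhibitors and E2F factors, 4 were lower (16.0%) and 1 was higher (4.00%, against 4.11% of all genes). Those lower were the kinase inhibitor gene Cdkn1c (-1.14), the cyclin genes Ccnd2 (-0.96) and Ccne1 (-0.83) and Cdc25a, which also stands in the wider mitosis list, and the higher one was Rb1 (0.98). Members, replication genes and G1 genes are set side by side here, and the difference between the lists was not tested. Without wild-type library 2 or wild-type library 3, 1 replication gene and 1 G1 gene were called lower in each fit, while lower calls over all genes fell to 0.318% and 0.463% in those fits. The counts of lower replication genes were 3 without null library 1 and 9 without null library 3, and that of lower G1 genes was 2 without null library 1, where lower calls over all genes were 0.640% without null library 1 and 4.58% without null library 3. The higher G1 gene was not called without null library 1, 2 or 3 or any 1 wild-type library, and 2 were called without null library 4.

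**Figure D5:**
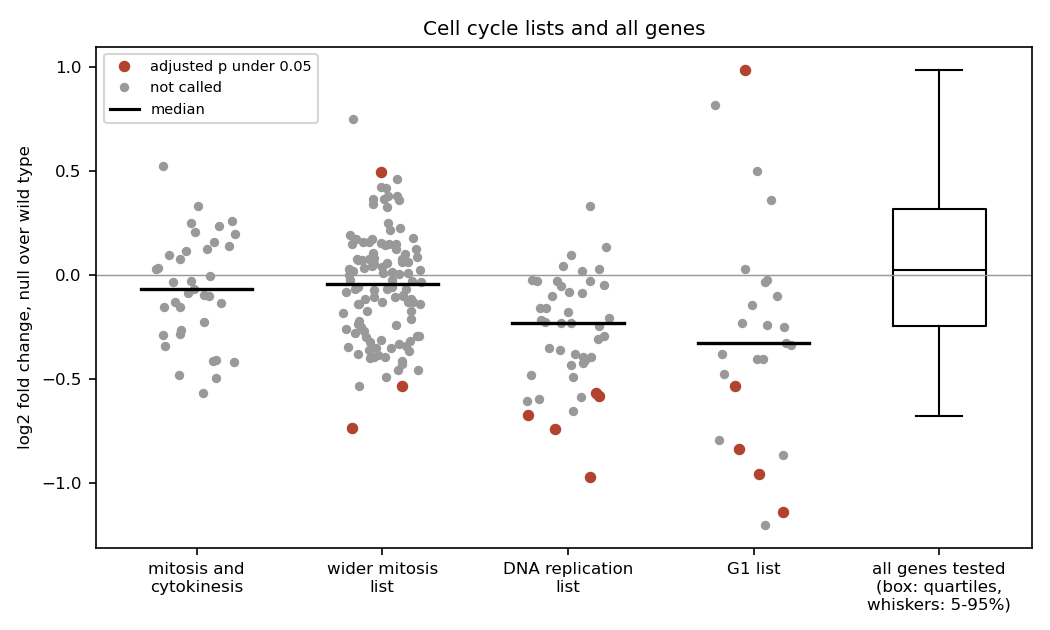
Log2 fold change, null over wild type, of every tested gene of the members, the wider mitosis list, the DNA replication list and the G1 list (points; red where adjusted p was under 0.05), with the median as a bar, beside a box of all 14290 genes tested. No member is red, and the medians are -0.07, -0.04, -0.23, -0.33 and, for all genes, 0.02.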

How the data were processed

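RNA from pooled canals was depleted of ribosomal RNA, made into cDNA with a low-input kit, amplified for 8 PCR cycles and sequenced as unstranded 50 nt single reads, per the labels' protocols. The deposited files hold raw read counts per gene symbol. TopHat2 2.0.13, HTSeq and SAMtools with build mm9 are named in the submitters' processing notes, and the annotation and the mode of counting were not given in the sources used here. The 5 summary lines of each file entered neither library sizes nor tests. Reads outside genes made up 7.31% to 14.2% of each file, reads in several genes 1.46% to 1.69% and reads aligned to several places 9.08% to 13.8%. The last are not in the counts, so Ccnb1, Ccnb2 and Kif4, which have annotated copies, are uncertain. Copies were sought only by the member's own name, so other members may have copies as well. Also uncertain are 9 members whose gene span overlaps one on the other strand (Ccna2, Cdca8, Bub3, Cdc20, Ube2c, Kif4, Nusap1, Kif20a and Prc1). Reads carry no strand, and how many fell in the shared stretches was not measured.

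Counts were fitted with edgeR 4.0.16 in R 4.3.3 (TMM, minimum count 10, genotype as the only term, 7 libraries, quasi-likelihood F test, Benjamini-Hochberg over 14290 genes). SE is the size of the log2 fold change over the root of F, and 95% intervals use the fit's total degrees of freedom. CPM is over gene rows, and a count of 3 reads equals 0.0669 to 0.108 CPM. Intervals cover the spread between these pools, and PCR reads without molecular identifiers are not independent molecules. Exon lengths came from GENCODE M21 (GRCm38) and matched all 37 members. In counts simulated for null against wild type over 14092 genes, 13.4% of 1.5-fold, 76.1% of 2-fold and 97.0% of 4-fold changes were recovered. The changed genes, 67, 67 and 66 at these folds, were drawn at random above a floor of mean reads and not matched to the members. Alternatives were RLE and upper-quartile factors, DESeq2 1.42.0, other filters (none, and minimum count 50), each library left out, a replicate block, and null library 2 with wild-type library 4 left out. Members and lists were chosen with earlier results of these data known. Per-library values were printed for members called, then for those without overlap, then by smallest p up to 12. Called genes of the other lists were named, at most 10 a list.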

Additional observations from a re-analysis of the deposited data

Results flagged for a closer look

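Each member was examined for 1 null library far from the other null libraries, with Dixon's ratio (the gap to the nearest library divided by the whole range) against its 95% critical value. Of 37 members, 1 passed it, and chance alone flags about 1 group in 20. Nusap1 measured 170.5, 172, 116 and 179 CPM in null libraries 1 to 4, against 153, 125 and 158 CPM in wild-type libraries 2 to 4. Null library 3 stood apart with a ratio of 0.863, and it was also below every wild-type library. Without null library 3 the log2 fold change of Nusap1 was 0.23, against 0.12 with all libraries, and it was not called in either fit.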

How the results depend on the processing

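Over 14 alternatives the members gave 518 fits, of which 511 kept the side of the threshold and 7 passed it. Null library 3 left out made Kif20a (0.74) and Incenp (-0.54) pass, so members called ranged from 0 to 1 higher and from 0 to 1 lower with 1 library left out. DESeq2 called 3 members lower, and 8 members changed sign somewhere without being called. The member median ranged from -0.15 to 0.00, moving by less than its SD over null libraries of 0.169. Of the same-numbered libraries, numbers 3 and 4 deviated together and number 2 did not (correlations of deviations 0.26, 0.17 and -0.07). Differently numbered pairs ranged from -0.23 (null 3 with wild type 4, and null 4 with wild type 3) to 0.14. Because number 2 did not follow, the numbers were not taken to pair the samples. Whether numbers 3 and 4 shared a batch was not tested. A fit with a replicate block called 2 members lower (Ccna2 and Ube2c), 8 replication genes lower and 565 genes of all lower, against 305 without it. With 1 library left out, further mitosis genes ranged from 0 to 2 higher and from 0 to 4 lower, replication genes from 1 to 9 lower, G1 genes from 0 to 2 higher and from 1 to 5 lower, and all genes from 210 to 946 higher and from 46 to 652 lower. DESeq2 gave 2 higher and 8 lower further mitosis genes, 13 lower replication genes, 2 higher G1 genes and 1003 higher and 796 lower genes in all. No filter on low counts left 1 lower further mitosis gene, and upper-quartile factors 0 higher G1 genes. Without null library 2 and wild-type library 4 together, 0 further mitosis genes were called in either direction, 2 replication genes were lower, 0 G1 genes were higher, and 298 genes of all were higher and 123 lower. The cause of these shifts was not tested. Simulated 1.5-fold changes were mostly missed at this sample size. The simulation called 134 genes, against 892 in the data, and did not match its changed genes to the members. Its recovery rates need not hold for the members. The intervals, not the absence of calls, bound the members' changes.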

Other observations

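Promoter letters were counted in the other cell cycle lists as well, with no test of the differences. Counting genes with a window, 28 of 32 members (87.5%) held a CHR match, as did 43 of 92 further mitosis genes (46.7%), 10 of 37 replication genes (27.0%) and 7 of 20 G1 genes (35.0%), against 22.5% of all 10069 tested genes with a window. The E2F letters TTTCCCGC, TTTGGCGC and TTTCGCGC, searched on both strands, were in 1 member (3.12%), 13 further mitosis genes (14.1%), 14 replication genes (37.8%) and 7 G1 genes (35.0%), against 3.95% of all tested genes. CCAAT was found in 78.1% of members, 59.8% of further mitosis genes, 64.9% of replication genes and 11 of 20 G1 genes, against 43.0% of all tested genes. Within the members, a CHR match stood in 5 of 6 genes without overlap between the genotypes that had a window and in 23 of the 26 others.

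Exon length was set beside the fitted values. The 8 members without overlap had a median exon length of 3743 bases (1868 to 8390) and the other members one of 5386 (1531 to 15433). Split by length over all members, the median log2 fold change was -0.08 in the 18 shorter members, of which 55.6% were below 0, and -0.07 in the 19 longer ones, of which 63.2% were below 0. Across genes, which are not independent replicates, Spearman's rho between exon length and log2 fold change was 0.188 over the 37 members, 0.31 over 112 further mitosis genes and 0.173 over 14127 tested genes. The part of length in the members' values was not tested.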
